A study of Canis lupus familiaris with 8 samples.

Results

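Synaptic vesicle and synaptic adhesion genes were followed in dog retina that had either been frozen fresh or fixed in paraformaldehyde (PFA), a crosslinking fixative for histology. Members were taken by symbol: synaptotagmins and synaptotagmin-like genes, syntaxins and syntaxin-binding genes, VAMP and SNAP genes, synapsins, synaptophysin, synaptogyrins, SV2 genes, complexins, RAB3 genes and the subunits of the RAB3 GTPase-activating complex, neurexins, neuroligins, and the DLG, DLGAP, SHANK and HOMER scaffolds. The rule found 86 of the 12824 genes of the deposited table. All libraries came from retina of male wild-type Beagles at 31 weeks of age, with 4 libraries for each preparation. For the fresh-frozen group the right eyecup was cut into 4 quadrants and embedded without fixation. The labels give 4 quadrants for PFA-fixed libraries too. For the PFA-fixed group the left eye was held at 4 °C, 3 h in 4% PFA and 24 h more in 2% PFA, then soaked in 15% sucrose (24 h) and 30% sucrose (24 h) before it was embedded frozen. RNA came from a micro column kit in the fresh-frozen group and, in the PFA-fixed group, from a kit for paraffin-embedded tissue with 18 h of proteinase K at 56 °C. Side of the eye, fixation and extraction kit therefore cannot be told apart. The labels do not say which libraries came from one animal, so a p-value reflects only how much these libraries vary, which may be partly technical.

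Neurotransmitter is released when a vesicle SNARE protein (VAMP) zippers with plasma membrane SNAREs (syntaxin and SNAP) to fuse a docked vesicle, while synaptotagmins sense calcium, complexins clamp and promote fusion, and RAB3 proteins recruit vesicles. Neurexins on the presynaptic side bind neuroligins on the postsynaptic side, where DLG, DLGAP, SHANK and HOMER proteins build the receptor scaffold. In retina, photoreceptors and bipolar cells release glutamate at ribbon synapses, whereas amacrine cells use conventional synapses, and many SNARE family members also serve membrane traffic in cells that have no synapses.

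Libraries are called frozen and fixed from here on. Words such as rose, fell and after fixation compare fixed with frozen libraries, not the same tissue over time. Levels are the deposited log2 CPM, the log2 of a gene's scaled reads, and values are listed for replicates 1 to 4 of a group in that order. Summed over the genes, CPM was 947376 to 975641 in frozen and 1021460 to 1058310 in fixed libraries. The fixed sums exceed the total that scaling to library size alone allows. The deposited values, and changes computed from them, therefore include a further scaling that is not stated. CPM is not corrected for gene length, so levels of different genes are not ranked. Changes are fixed minus frozen on the log2 scale, and a gene is called when its adjusted p in limma, fitted over all genes, is under 0.05. Effective depth, read from the spacing of low values, was 21660000 to 22760000 reads in frozen and 11040000 to 15400000 in fixed libraries. Of the members, 85 exceeded 1 CPM in all 8 libraries, and STX19 was below it in 1 library. None therefore entered the table through the group where it was high. The rod list was high in both groups (means of 10.25 to 10.48 log2 CPM in frozen and 10.40 to 10.56 in fixed libraries). Markers of sclera, pigment epithelium, vessels and microglia were also present, more so in frozen libraries.

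In fixed retina, 18 of the 86 members were higher and 27 lower, and 41 were not called. Among all genes, 33.9% were called higher and 34.7% lower, 68.7% in all. Among members these shares were 20.9%, 31.4% and 52.3%. The median change of the members was -0.088, beside -0.018 for all genes, and their median size of change was 0.37, beside 0.51. Changes of at least 2-fold were found for 5 members upward (DLG2, VAMP2, STXBP3, STX17 and SNAP23) and 5 downward (SYNGR2, RAB3D, VAMP3, SYNGR3 and VAMP8), where 10.6% and 13.7% of all genes passed the same limits. The groups did not overlap in 38 members (44.2%, beside 62.9% of all genes), 15 of them higher and 23 lower after fixation. Together the members took 0.891 ± 0.067% of the summed CPM of frozen and 0.962 ± 0.038% of that of fixed libraries (SD, n = 4 each). The number of rising members depended on the scaling between libraries: 13 rose and 36 fell when libraries were aligned on the mean of a list of 22 rod genes (rod-mean scaling; 24.2% and 42.7% of all genes), and 9 rose and 41 fell when aligned on its median (rod-median scaling; 15.4% and 45.4%). Both rod scalings moved the median change of all genes, to -0.20 and -0.35. Quantile normalization instead gave 23 rises and 25 falls (38.0% and 31.3% of all genes). Centring on library medians gave the same 23 and 25, where 69.0% of all genes were called and 54.8% of those calls were higher. The rod genes are not a fixed reference. As deposited, 10 of the 22 were called higher and 5 lower, with changes from -0.98 to 1.11 and a median of 0.15. In bulk tissue, fewer cells of a type and less RNA per cell cannot be told apart.

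**Figure D1:**
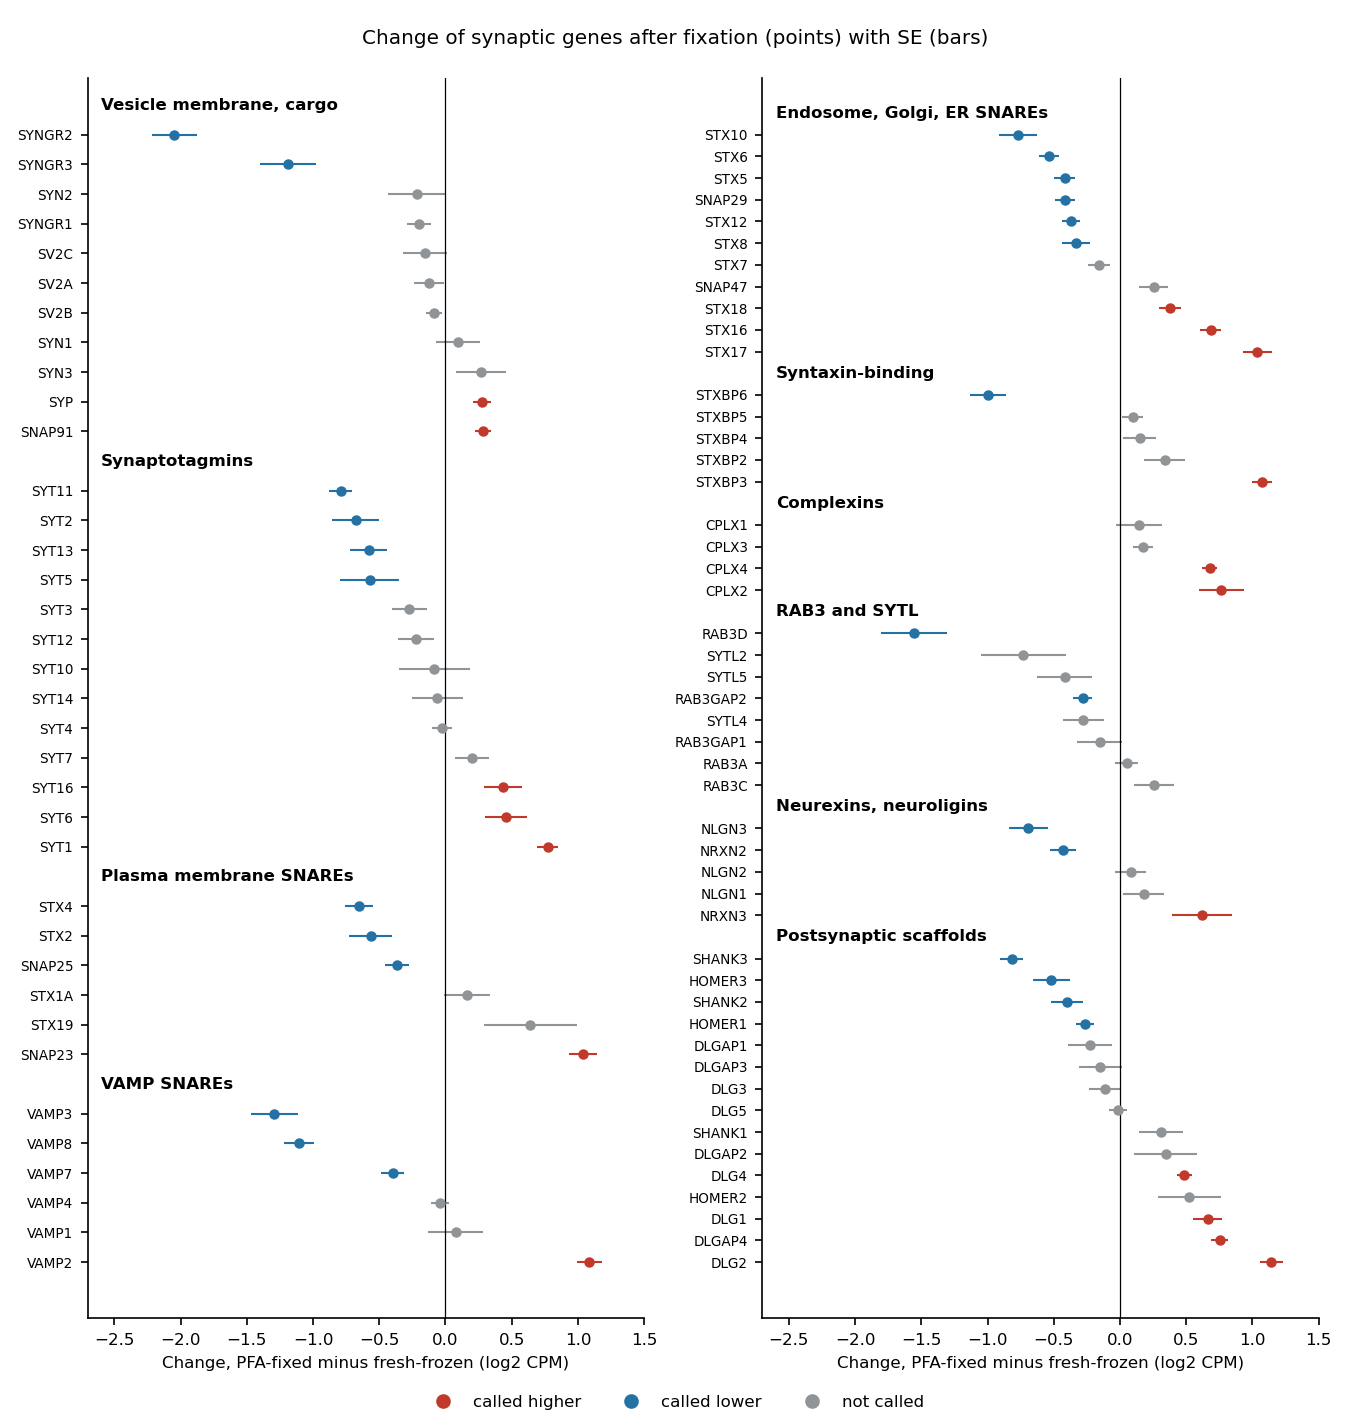
Change of each of 84 of the 86 genes (x axis, fixed minus frozen, log2 CPM) with its SE, grouped by role, where red points were called higher, blue lower and grey not called by limma. SYNGR2 lies farthest to the left at -2.05 and DLG2 farthest to the right at 1.14, and all but 10 of the genes drawn lie within 2-fold.

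Membrane proteins of the vesicle itself were mostly not called, with 2 of 11 members higher, 2 lower and a median change of -0.13 as deposited. Each direction held 18.2%, beside 33.9% and 34.7% of all genes. Synaptophysin (SYP), the most used marker of synaptic vesicles, stood at 8.43, 8.51, 8.69 and 8.55 log2 CPM in frozen libraries and at 8.88, 8.80, 8.82 and 8.79 in fixed ones. All fixed libraries were above all frozen ones, and SYP rose by 0.28 ± 0.065 (SE, limma adjusted p = 0.0026). The vesicle glycoprotein gene SV2B read 9.22, 9.36, 9.25 and 9.33 log2 CPM without fixation and 9.23, 9.11, 9.24 and 9.22 with it. Here the groups overlapped, and the gene differed by -0.090 ± 0.061 (SE, limma adjusted p = 0.212). SV2B was called lower with quantile normalization (-0.26) and under rod-mean (-0.27) and rod-median scaling (-0.42). SNAP91, which the symbol rule takes with the SNAP genes although it encodes a clathrin adaptor of vesicle retrieval, was at 7.73, 7.89, 7.80 and 7.79 log2 CPM in frozen libraries. In fixed ones it was at 8.15, 7.9995, 8.11 and 8.08, without overlap, and it rose by 0.28 ± 0.060 (SE, limma adjusted p = 0.00121). These small rises depended on the scaling: under rod-mean scaling SYP was at 0.091 and SNAP91 at 0.10, and under rod-median scaling at -0.057 and -0.049, and neither was called. After centring on library medians both were still called, SYP at 0.35 and SNAP91 at 0.36. SYP was not called after quantile normalization either (0.073).

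The falls in this group were in synaptogyrins, which are relatives of synaptophysin. SYNGR2, the member expressed widely outside the nervous system, read 4.57, 4.27, 3.97 and 4.17 log2 CPM in frozen libraries and 1.88, 2.47, 2.22 and 2.21 in fixed ones. This was the largest fall of any member, 4.14-fold, and SYNGR2 fell by 2.05 ± 0.17 (SE, limma adjusted p = 6.51e-07). The neuronal SYNGR3 was at 3.76, 3.97, 4.85 and 4.26 log2 CPM, highest in frozen replicate 3, and at 2.94, 2.91, 2.93 and 3.31 after fixation, highest in replicate 4. It fell by 1.19 ± 0.21 (SE, limma adjusted p = 3.62e-04), and the groups did not overlap. SYNGR1 differed by -0.20 ± 0.094 (SE, limma adjusted p = 0.077). Synapsins, which tether vesicles in the reserve pool, were not called: SYN1 differed by 0.096, SYN2 by -0.22 and SYN3 by 0.27. Nor were the other SV2 genes, SV2A at -0.13 and SV2C at -0.15.

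Of the synaptotagmins, 3 of 13 were higher (23.1%) and 4 lower (30.8%), beside 33.9% and 34.7% of all genes, with a median of -0.087. SYT1, the fast calcium sensor of vesicle release, stood at 9.40, 9.57, 9.72 and 9.56 log2 CPM in frozen libraries and at 10.22, 10.41, 10.36 and 10.34 in fixed ones. Every fixed library exceeded every frozen one, and SYT1 rose by 0.77 ± 0.078 (SE, limma adjusted p = 3.71e-06). Its close relative SYT2 moved the other way, from 5.21, 5.03, 5.95 and 5.28 log2 CPM to 4.74, 4.47, 4.58 and 4.96. No fixed library reached the frozen range, and SYT2 fell by 0.68 ± 0.18 (SE, limma adjusted p = 0.00539). SYT11, a family member that does not bind calcium, was at 8.08, 7.98, 8.33 and 8.09 log2 CPM and, after fixation, at 7.42, 7.21, 7.26 and 7.42. It fell by 0.79 ± 0.084 (SE, limma adjusted p = 5.30e-06), again without overlap.

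SYT6 read 2.44, 2.47, 2.53 and 2.64 log2 CPM in frozen and 2.69, 2.97, 3.25 and 2.9999 in fixed libraries. It rose by 0.46 ± 0.16 (SE, limma adjusted p = 0.0209). The call was lost without fixed replicate 3 (0.37), without frozen replicate 3 and fixed replicate 4 together (0.45) and with either rod scaling (0.27 and 0.12). SYT16 rose by 0.43, a call lost on leaving out frozen replicate 4 (0.36) or fixed replicate 1 (0.39) and with either rod scaling (0.25 and 0.10). SYT13 fell by 0.58 ± 0.14 (SE, limma adjusted p = 0.0032). SYT5 fell by 0.57 (limma adjusted p = 0.0379), and only 3 of the 8 fits that each left out 1 library still called it (-0.74 to -0.42), those without frozen replicate 1 (-0.68) or 2 (-0.69) or fixed replicate 4 (-0.74). It was not called with quantile normalization (-0.33), centred on library medians (-0.49) or in limma without trend. The remaining synaptotagmins were not called, among them the slower calcium sensor SYT7 (0.20) and SYT4 (-0.025), with changes between -0.27 and 0.20. SYT7 was called higher without frozen replicate 3 (0.31, limma adjusted p = 0.028).

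Of the plasma membrane SNAREs, 1 of 7 rose (14.3%) and 3 fell (42.9%), beside 33.9% and 34.7% of all genes. SNAP25, the neuronal partner of syntaxin 1 in the fusion complex, was at 9.51, 9.63, 9.91 and 9.77 log2 CPM in frozen libraries and at 9.37, 9.23, 9.29 and 9.46 in fixed ones. The lowest frozen library was just above the highest fixed one, and SNAP25 fell by 0.37 ± 0.089 (SE, limma adjusted p = 0.00318). SNAP23, which takes its place in cells without synapses, stood at 5.33, 5.08, 4.997 and 5.47 log2 CPM and rose to 6.22, 6.39, 6.24 and 6.16. It rose by 1.04 ± 0.11 (SE, limma adjusted p = 4.19e-06), a 2.05-fold rise without overlap, so the changes of the 2 paralogs lay 1.40 apart. Quantile normalization, which moves genes by unequal amounts, gave -0.51 for SNAP25 and 1.05 for SNAP23.

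STX4, a syntaxin of exocytosis in many cell types, was at 4.23, 4.27, 4.25 and 4.11 log2 CPM and at 3.47, 3.47, 3.60 and 3.70 after fixation, and fell by 0.66 ± 0.11 (SE, limma adjusted p = 1.74e-04). STX2 stood at 4.09, 4.12, 3.89 and 3.95 log2 CPM in frozen and 3.31, 3.82, 3.59 and 3.06 in fixed libraries and fell by 0.57 ± 0.16 (SE, limma adjusted p = 0.00777), a call that ended with quantile normalization (-0.35). Both syntaxins were lower in every fixed library. STX1A differed by 0.16 and STX19 by 0.64, and neither was called. STX19 was at its highest in frozen replicate 4 (1.61 log2 CPM, beside -0.044 to 0.29 in the others) and was called without it (1.01, limma adjusted p = 0.00538).

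Among the vesicle SNAREs, VAMP2 rose while VAMP3, VAMP7 and VAMP8 fell, 1 higher and 3 lower of 6. Those shares were 16.7% and 50%, beside 33.9% and 34.7% of all genes. VAMP2, the main synaptobrevin of brain and retina, stood at 8.21, 8.40, 8.56 and 8.41 log2 CPM in frozen and 9.64, 9.28, 9.45 and 9.56 in fixed libraries. Each fixed library lay above each frozen one, and VAMP2 rose by 1.09 ± 0.093 (SE, limma adjusted p = 8.48e-07), 2.12-fold. VAMP3, the cellubrevin of constitutive recycling, went from 5.60, 5.45, 4.92 and 5.05 log2 CPM to 3.65, 4.27, 3.79 and 4.16. It fell by 1.29 ± 0.18 (SE, limma adjusted p = 4.35e-05). VAMP8, the endobrevin of endosomes and secretory cells, was at 5.77, 5.44, 5.69 and 5.41 log2 CPM and then at 4.27, 4.40, 4.62 and 4.60. No library of one group entered the range of the other for VAMP3 or VAMP8, and VAMP8 fell by 1.10 ± 0.11 (SE, limma adjusted p = 4.50e-06). VAMP4, a SNARE of the trans-Golgi network, was at 5.82, 5.93, 5.86 and 5.83 log2 CPM and 5.80, 5.76, 5.92 and 5.80 and differed by -0.041 ± 0.068 (SE, limma adjusted p = 0.606), and it was called lower under rod-mean (-0.23) and rod-median scaling (-0.37). VAMP7, a SNARE of late endosomes, fell by 0.40 (limma adjusted p = 0.00123), and VAMP1, the other neuronal synaptobrevin, differed by 0.076 and was not called.

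**Figure D2:**
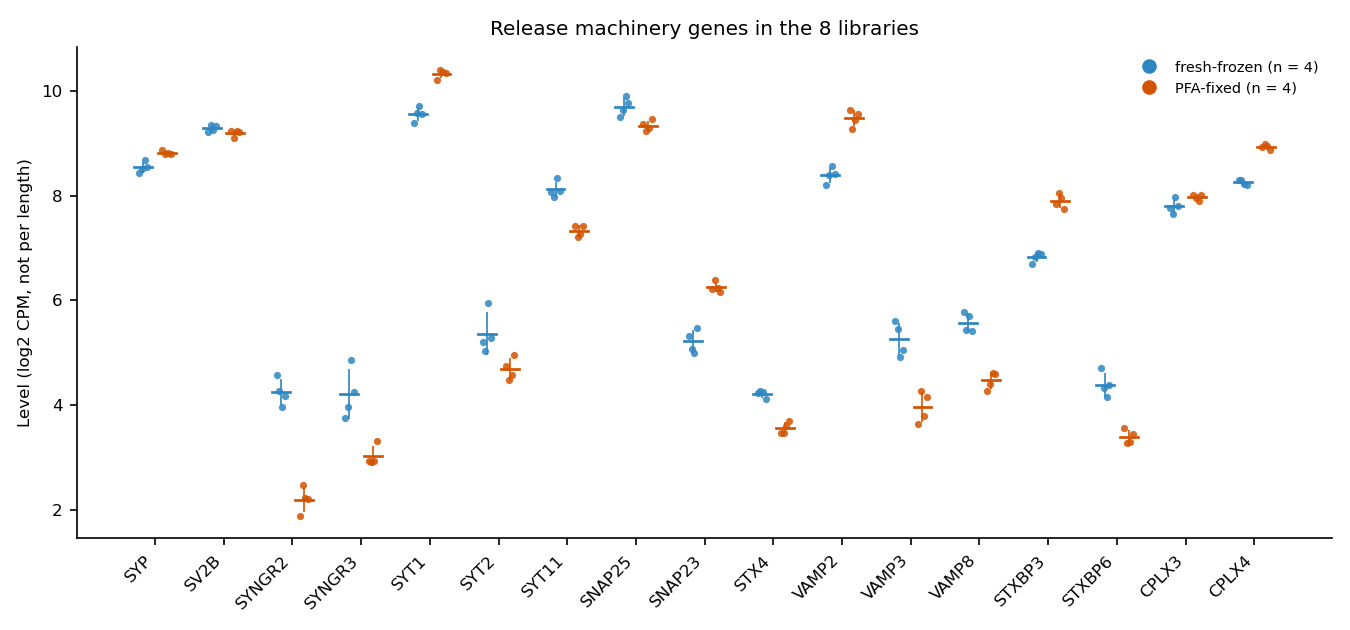
Level of 17 genes of the release machinery (y axis, log2 CPM, not per length) in each frozen (blue) and fixed (orange) library, with the group mean as a line and SD as a bar (n = 4 each). SYT1, VAMP2, SNAP23, STXBP3 and CPLX4 are higher in all fixed libraries, and SYNGR2, SYT11, VAMP3, VAMP8 and STXBP6 are lower in all of them, while SV2B overlaps.

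SNAREs of the endosome, Golgi and endoplasmic reticulum had 3 of 11 members higher and 6 lower, 81.8% called beside 68.7% of all genes. STX17, which drives fusion of autophagosomes with lysosomes, was at 4.67, 4.54, 4.92 and 4.93 log2 CPM in frozen and 5.74, 5.63, 5.95 and 5.88 in fixed libraries. It rose by 1.04 ± 0.11 (SE, limma adjusted p = 5.19e-06), the largest rise of this group, with no overlap. STX16, a SNARE of endosome to trans-Golgi transport, read 6.36, 6.52, 6.63 and 6.73 log2 CPM and 7.23, 7.28, 7.18 and 7.29, without overlap, and rose by 0.69 ± 0.080 (SE, limma adjusted p = 1.26e-05). STX18, which acts at the endoplasmic reticulum, stood at 6.13, 6.22, 6.02 and 6.06 log2 CPM and 6.45, 6.62, 6.56 and 6.31, without overlap, and rose by 0.38 ± 0.081 (SE, limma adjusted p = 0.0014). Under rod-median scaling the changes of STX16 and STX18 were 0.35 and 0.045, not called.

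The 6 falls of this group were led by STX10. STX10, another trans-Golgi syntaxin, was at 3.39, 3.22, 3.37 and 3.05 log2 CPM in frozen and 2.54, 2.58, 2.50 and 2.32 in fixed libraries, and fell by 0.77 ± 0.14 (SE, limma adjusted p = 4.75e-04). STX6, its relative, stood at 5.62, 5.76, 5.69 and 5.61 log2 CPM and 5.09, 5.13, 5.25 and 5.06. It fell by 0.54 ± 0.076 (SE, limma adjusted p = 6.00e-05), and both genes were lower in all fixed libraries. The early secretory syntaxin STX5 fell by 0.42, the endosomal syntaxins STX12 and STX8 by 0.37 and 0.33, and SNAP29, the partner of STX17 on autophagosomes, by 0.41. STX8 was not called under quantile normalization (-0.20) or after centring on library medians (-0.25). STX7 (-0.16) and SNAP47 (0.25) were not called.

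Syntaxin-binding genes gave 1 rise and 1 fall of 5 (20% each, beside 33.9% and 34.7% of all genes). STXBP3, a partner protein of STX4, stood at 6.69, 6.82, 6.90 and 6.89 log2 CPM in frozen libraries and 7.84, 8.05, 7.95 and 7.75 in fixed ones. It rose by 1.07 ± 0.078 (SE, limma adjusted p = 2.36e-07), 2.10-fold, whereas STX4 itself fell. STXBP6 (amisyn), which competes with VAMP for the syntaxin complex, was at 4.70, 4.32, 4.16 and 4.38 log2 CPM and 3.56, 3.27, 3.29 and 3.45. It fell by 0.997 ± 0.13 (SE, limma adjusted p = 4.12e-05), lower in all fixed libraries. STXBP5 (tomosyn), an inhibitor of SNARE assembly, read 6.02, 6.23, 6.11 and 6.15 log2 CPM and 6.41, 6.16, 6.21 and 6.12, within overlapping ranges, and differed by 0.097 ± 0.080 (SE, limma adjusted p = 0.297). STXBP4 and STXBP2 differed by 0.15 and 0.34 and were not called. STXBP2 was called higher without frozen replicate 1 or fixed replicate 3 (0.44 and 0.43).

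Complexins were the role with the highest median, 0.42. Of these 4 genes, 2 were called higher and none lower, beside 33.9% and 34.7% of all genes. None was lower in limma at an unadjusted p under 0.05 or in the fit without an intensity trend. The median of the complexins was 0.24 under rod-mean scaling (2 called higher) and 0.092 under rod-median scaling (1 called higher). CPLX4, a complexin of photoreceptor ribbon synapses, was at 8.30, 8.31, 8.23 and 8.21 log2 CPM in frozen and 8.94, 8.996, 8.95 and 8.87 in fixed libraries. Its values within a group lay closer together than those of any other complexin, and CPLX4 rose by 0.68 ± 0.056 (SE, limma adjusted p = 6.90e-07). CPLX3, the other complexin of retinal ribbon synapses, stood at 7.77, 7.64, 7.98 and 7.80 log2 CPM and 8.02, 7.96, 7.89 and 8.01. Frozen replicate 3 lay within the fixed range, and CPLX3 differed by 0.17 ± 0.074 (SE, limma adjusted p = 0.0585). Without that library CPLX3 was called (0.23, limma adjusted p = 0.00921), and it was at -0.16, not called, under rod-median scaling. CPLX2, a complexin of conventional synapses, read 4.27, 3.94, 4.796 and 4.29 log2 CPM, highest again in frozen replicate 3, and 5.04, 5.23, 4.78 and 5.30. It rose by 0.76 ± 0.17 (SE, limma adjusted p = 0.00182) with a small overlap, and was not called under rod-median scaling (0.43). CPLX1 differed by 0.14 and was called without frozen replicate 3 (0.34, limma adjusted p = 0.018).

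RAB3 genes and their partners had 2 falls among 8 and no rise, where 34.7% of all genes fell and 33.9% rose. At an unadjusted p under 0.05 limma gave 3 falls and 0 rises, and without trend 2 falls and 0 rises. RAB3A, the main RAB3 of synaptic vesicles, stood at 7.28, 7.36, 7.67 and 7.30 log2 CPM and 7.38, 7.43, 7.42 and 7.58, overlapping between groups, and differed by 0.050 ± 0.088 (SE, limma adjusted p = 0.632). RAB3C was at 6.66, 6.75, 7.26 and 7.12 log2 CPM in frozen and 7.33, 7.08, 6.91 and 7.49 in fixed libraries. Its ranges overlapped and it differed by 0.26 ± 0.15 (SE, limma adjusted p = 0.147), but it was called higher without frozen replicate 3 (0.36, limma adjusted p = 0.0448). RAB3D, known from secretory granules of exocrine cells, went from 3.35, 2.69, 3.14 and 2.28 log2 CPM to 1.20, 1.14, 1.66 and 1.24, without overlap, and fell by 1.56 ± 0.25 (SE, limma adjusted p = 1.48e-04). RAB3GAP2, the non-catalytic subunit of the RAB3 GTPase-activating complex, was at 6.87, 6.75, 7.001 and 6.83 log2 CPM and 6.68, 6.47, 6.60 and 6.58. It fell by 0.28 ± 0.073 (SE, limma adjusted p = 0.00451), without overlap. The catalytic RAB3GAP1 differed by -0.15 and was not called. The synaptotagmin-like RAB27 effectors SYTL2, SYTL4 and SYTL5 differed by -0.73, -0.28 and -0.42, none of them called.

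Trans-synaptic adhesion genes gave 1 rise and 2 falls of 6 (16.7% and 33.3%, beside 33.9% and 34.7% of all genes). NRXN3 stood at 6.996, 7.57, 8.04 and 7.84 log2 CPM in frozen libraries and 8.03, 7.79, 8.42 and 8.68 in fixed ones, an overlap of the groups, and rose by 0.62 ± 0.22 (SE, limma adjusted p = 0.0275). That call was lost on leaving out frozen replicate 1 (0.41) or 2 (0.60) or fixed replicate 3 (0.56) or 4 (0.47), with quantile normalization (0.52), with either rod scaling (0.43 and 0.29) and in limma without trend. NRXN2 read 6.57, 6.27, 6.71 and 6.55 log2 CPM and 6.26, 5.98, 6.03 and 6.10. It fell by 0.43 ± 0.098 (SE, limma adjusted p = 0.00209), each fixed library below each frozen one, so that NRXN2 and NRXN3 differed in their changes by 1.05. NLGN3, a neuroligin of excitatory and inhibitory synapses, was at 4.42, 4.17, 4.40 and 4.37 log2 CPM and 3.44, 3.41, 4.01 and 3.74, and fell by 0.69 ± 0.14 (SE, limma adjusted p = 0.00114) without overlap. NLGN1 (0.18), which marks excitatory synapses, and NLGN2 (0.080), which marks inhibitory ones, were not called.

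Of the postsynaptic scaffold genes, 4 of 15 were higher (DLG1, DLG2, DLG4 and DLGAP4), 4 lower (SHANK2, SHANK3, HOMER1 and HOMER3) and 7 not called, so each direction held 26.7%, beside 33.9% and 34.7% of all genes. DLG2 was at 7.03, 7.30, 7.40 and 7.39 log2 CPM in frozen and 8.50, 8.32, 8.36 and 8.51 in fixed libraries. This was the largest rise of any member, 2.21-fold, and DLG2 rose by 1.14 ± 0.088 (SE, limma adjusted p = 3.53e-07). DLG4, the postsynaptic density scaffold that photoreceptor terminals also contain, stood at 7.78, 7.71, 7.89 and 7.77 log2 CPM and 8.29, 8.33, 8.24 and 8.24 and rose by 0.49 ± 0.059 (SE, limma adjusted p = 1.67e-05), not called under rod-median scaling (0.15). DLGAP4, which links DLG to SHANK proteins, read 6.95, 7.03, 7.14 and 6.93 log2 CPM and 7.82, 7.77, 7.77 and 7.70. All 3 of these genes were higher in all fixed libraries, and DLGAP4 rose by 0.75 ± 0.064 (SE, limma adjusted p = 8.32e-07). DLG1 rose by 0.66 (limma adjusted p = 2.17e-04).

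SHANK3, a master scaffold of excitatory synapses, was at 5.54, 5.37, 5.45 and 5.36 log2 CPM in frozen and 4.61, 4.54, 4.56 and 4.74 in fixed libraries. Every fixed library was below every frozen one, and SHANK3 fell by 0.82 ± 0.084 (SE, limma adjusted p = 4.27e-06). HOMER3, which ties SHANK to metabotropic glutamate receptors, stood at 6.09, 5.45, 5.43 and 5.46 log2 CPM, with frozen replicate 1 above the others, and at 5.08, 5.23, 4.98 and 5.06 after fixation. It fell by 0.52 ± 0.14 (SE, limma adjusted p = 0.00582) without overlap, and differed by -0.36 without frozen replicate 1 (limma adjusted p = 0.00381). SHANK2 fell by 0.40 and HOMER1 by 0.26 (limma adjusted p = 0.0106 and 0.00466). Not called were DLG3 (-0.12), DLG5 (-0.019), DLGAP1 (-0.23), DLGAP2 (0.34), DLGAP3 (-0.15), SHANK1 (0.31) and HOMER2 (0.52). HOMER2 was low in replicate 4 of both groups (5.13 and 5.39 log2 CPM, beside 5.66 to 5.98 and 6.30 to 6.58 in the others), and was called higher when the replicate number entered the fit as a block (0.52, limma adjusted p = 0.000472). SHANK1 was called higher without frozen replicate 3 (0.48).

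A difference between genes of the same library is not altered by a scaling that shifts all genes alike, and 16 pairs of relatives were compared by the log2 difference of their CPM. The pairs were picked after the values were seen, so the 15 in which this difference did not overlap between groups are a description of those pairs and carry no test. VAMP2 minus VAMP3 ran from 2.61 to 3.64 in frozen and from 5.01 to 5.99 in fixed libraries, and VAMP2 minus VAMP8 from 2.44 to 3.01 and from 4.83 to 5.37. SYT1 minus SYT2 ran from 3.76 to 4.54 and from 5.39 to 5.94, whereas SNAP25 minus SNAP23 fell from between 4.18 and 4.91 to between 2.83 and 3.30. CPLX4 minus CPLX3 was 0.25 to 0.67 and 0.86 to 1.06, and SHANK1 minus SHANK3 was -0.45 to 0.53 and 1.07 to 1.303. HOMER2 minus HOMER3 overlapped, at -0.43 to 0.53 and 0.33 to 1.35.

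**Figure D3:**
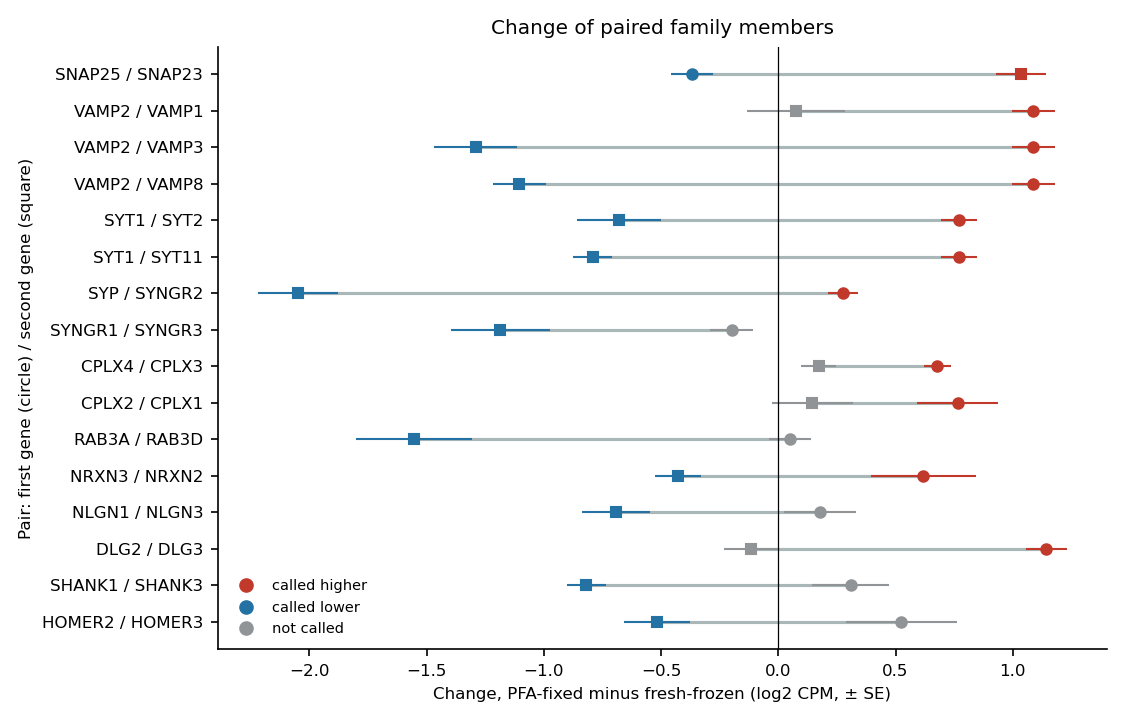
Change of the first (circle) and second (square) gene of 16 pairs of relatives (x axis, fixed minus frozen, log2 CPM, with SE), coloured by the limma call. The widest gaps are VAMP2 and VAMP3 (2.38), SYP and SYNGR2 (2.32) and VAMP2 and VAMP8 (2.19), and SNAP25 is the only first gene that lies to the left of its partner.

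Libraries of 1 preparation also differed from each other in these genes. Among frozen libraries, replicate 3 was the highest for 44 of 86 members (51.2%), beside 26.6% of all genes, and among fixed libraries replicate 4 was the highest for 35 (40.7%), beside 28.1%. Both held for 28 members (32.6%, beside 11.0% of all genes), including 9 of 13 synaptotagmins, the synapsins SYN1 and SYN2, SV2A and SV2C, SNAP25, STX1A, VAMP1, CPLX1 and CPLX2, RAB3A and RAB3C, NRXN3 and NLGN2. CPLX1 was 0.78 above the mean of the other frozen libraries in replicate 3 and 0.38 above the other fixed ones in replicate 4, SYN2 0.63 and 0.58, and VAMP1 0.65 and 0.56. Both also held for all 8 measured genes of the ganglion cell marker list. Their summed level, most of it from the neurofilament genes NEFL, NEFM and NEFH, ran from 2483 to 4865 CPM in frozen and from 2749 to 4170 CPM in fixed libraries. Both patterns held for 3 of 11 genes of the amacrine list, 1 of 13 of the bipolar list and 2 of 22 of the rod list. Endosomal and Golgi SNAREs did so in 1 of 11. Without both libraries, 22 members rose and 28 fell (32.5% and 32.9% of all genes), an alternative added after the data were seen, and without frozen replicate 3 alone 25 rose and 28 fell (33.1% and 33.6%). Of the ganglion list, 5 genes fell and 1 rose after fixation, with a median change of -0.85. Of the 28 members with the same library pattern, 7 fell, 4 rose (SYT16, CPLX2, NRXN3 and DLG2) and 17 were not called. The part of ganglion cell content in these changes was not tested. Of the bipolar list, 8 of 13 genes rose and 1 fell (median change 0.40), and of the rod list 10 of 22 rose and 5 fell (0.15). Of the amacrine list, 4 of 11 rose and 4 fell (-0.14), beside 33.9% and 34.7% of all genes. The part of these cells in the rises of members was not tested.

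**Figure D4:**
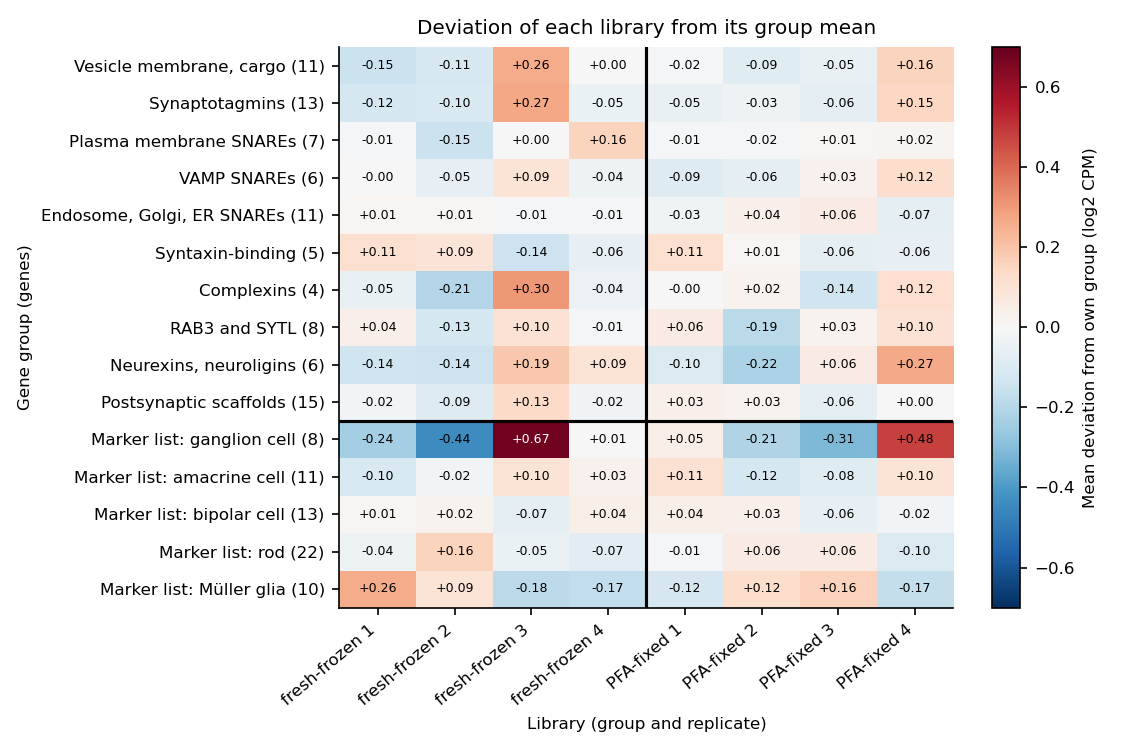
Mean deviation of each library from its own group mean (colour and printed value, log2 CPM) for the 10 role groups and 5 cell type marker lists, with the number of genes in brackets. Vesicle membrane genes, synaptotagmins and complexins are 0.26 to 0.30 above their group mean in frozen replicate 3 and 0.12 to 0.16 above it in fixed replicate 4, and the ganglion cell list is 0.67 and 0.48 above it in the same libraries.

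A second set of members had its highest frozen value in replicate 1. Of these 15 members, 11 fell after fixation and 4 were not called, where 51.0% of all genes that were highest in that library fell. They include 6 of the 8 largest falls: SYNGR2, RAB3D, VAMP3, VAMP8, STXBP6 and SHANK3. Of the non-neuronal marker lists, 12 of 14 vascular genes, 9 of 12 microglia and macrophage genes, 8 of 10 Müller glia genes and 6 of 9 pigment epithelium genes were highest in the same library. Other lists were not: 1 of 11 sclera and fibroblast genes and 1 of 8 pigment and melanocyte genes were highest there, while 7 of 11 were highest in frozen replicate 4 and 7 of 8 in frozen replicate 2. All 6 lists had lower sums in fixed libraries. The vascular list summed to 2587 to 3448 CPM in frozen and 862 to 974 CPM in fixed libraries, with 13 of 14 genes lower. Microglia and macrophage genes summed to 243 to 391 and 40.03 to 56.8 CPM, with 10 of 12 lower and TMEM119 at the lowest value of the table in a fixed library. The Müller list summed to 7730 to 10006 and 3599 to 4869 CPM, with 6 of 10 lower. The sclera and fibroblast list summed to 8223 to 11553 and 220 to 274 CPM, with 11 of 11 lower, the pigment and melanocyte list to 1451 to 2219 and 98.4 to 106 CPM, with 7 of 8 lower and MLANA at the lowest value in a fixed library, and the pigment epithelium list to 2002 to 3060 and 226 to 279 CPM, with 9 of 9 lower. The part of these cells in the falls of SYNGR2, RAB3D, VAMP3, VAMP8 and other widely expressed members was not tested.

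Other synapse genes were followed as 5 lists beside the members. Of 20 genes of the active zone and of vesicle priming, 15 rose (75%) and 1 fell (5%), with a median change of 0.68. Among all genes, 33.9% rose and 34.7% fell. Under rod-mean scaling 14 of the 20 rose and 3 fell (median 0.49), beside 24.2% and 42.7% of all genes. Under rod-median scaling 9 rose and 3 fell (median 0.35), beside 15.4% and 45.4%. RIMS2, which docks and primes vesicles, rose by 0.76 and the priming factor gene UNC13B by 1.21. CACNA1F, the calcium channel of photoreceptor terminals, rose by 1.57 and RIMBP2, which tethers such channels, by 1.40. The calcium-dependent activator gene CADPS2 was the fall, by 1.73. All 5 had non-overlapping groups, and the limma adjusted p of each lay at or below 2.41e-05.

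Of 34 genes of SNARE recycling and vesicle endocytosis, 11 rose and 11 fell, with a median of -0.12. Each direction held 32.4%, beside 33.9% and 34.7% of all genes. Under rod-mean scaling 6 rose and 18 fell (median -0.31), and under rod-median scaling 3 and 18 (median -0.46). The endocytic scaffolds ITSN1 and ITSN2 rose by 0.89 and 0.88. Clathrin light chain CLTB fell by 0.82, the clathrin adaptor gene PICALM by 0.52, clathrin heavy chain CLTC by 0.25, and the uncoating chaperone gene HSPA8, which has many processed copies that can share reads, by 0.36. The limma adjusted p of each of these 6 lay at or below 0.00581. Of 21 vesicular transporter and other vesicle membrane genes, 5 rose (23.8%) and 10 fell (47.6%), with a median change of -0.15. Under rod-mean scaling 3 of the 21 rose and 11 fell (median -0.33), and under rod-median scaling 1 and 11 (median -0.48). SLC17A7, the glutamate transporter of photoreceptor and bipolar vesicles, rose by 0.44 (0.10 and not called under rod-median scaling), whereas SLC17A6, the glutamate transporter of ganglion cells, fell by 1.05. The vesicular zinc transporter gene SLC30A3 went from 4.15, 4.70, 3.05 and 4.04 log2 CPM to 0.50, -0.42, -0.66 and -1.19, without overlap, and fell by 4.43 ± 0.39 (SE, limma adjusted p = 1.19e-06). SYPL2 rose by 1.40 and the monoamine transporter gene SLC18A2 by 0.99 (limma adjusted p = 0.0406). The call of SLC18A2 was lost on leaving out frozen replicate 1 (0.69) or 3 (0.996) or fixed replicate 1 (0.83), 3 (1.06) or 4 (0.91). It was also lost with the replicate block (0.99) and with either rod scaling (0.81 and 0.66). The proton pump subunit gene ATP6V0A1 differed by -0.025 and was not called.

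Among 46 other trans-synaptic adhesion genes, 14 rose and 14 fell, the median change being 0.068. Each direction held 30.4%, beside 33.9% and 34.7% of all genes. Under rod-mean scaling 6 of them rose and 15 fell (median -0.12), and under rod-median scaling 2 and 17 (median -0.26). LRRTM4, a postsynaptic partner of neurexins and heparan sulfate, stood at 5.87, 5.74, 5.90 and 5.96 log2 CPM in frozen and 8.47, 8.56, 8.47 and 8.66 in fixed libraries. It rose by 2.67 ± 0.070 (SE, limma adjusted p = 8.94e-11), a 6.38-fold rise without overlap. The netrin-G gene NTNG2 rose by 1.04 and the adhesion gene CADM1 by 0.40 (0.067 and not called under rod-median scaling). The receptor phosphatase gene PTPRF and the calsyntenin gene CLSTN2 fell by 1.72 and 1.74, and CLSTN1 by 0.18 (limma adjusted p = 0.0423). The call of CLSTN1 was lost on leaving out frozen replicate 1 (-0.17), 2 (-0.16) or 3 (-0.15), or fixed replicate 1 (-0.16), 3 (-0.19) or 4 (-0.15), when centred on library medians (-0.096) and in limma without trend. Of 29 other postsynaptic scaffold genes, 11 rose (37.9%) and 4 fell (13.8%), the median change being 0.26. These became 6 and 6 under rod-mean (median 0.071) and 4 and 7 under rod-median scaling (median -0.077). The photoreceptor scaffold gene MPP4 rose by 1.51 and SORBS2 by 0.49 (0.16 and not called under rod-median scaling). The adaptor genes APBA2 and BAIAP2 fell by 0.80 and 0.44 (limma adjusted p = 0.00532 and 7.21e-04).

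Of the 45 called members, 33 were called in the same direction under every alternative in which they were fitted, and 2 (SYP and SNAP91) changed sign under 1 of them. Of the 41 that were not called, 14 were not called under any alternative, while 27 were called under at least 1. Leaving out 1 library also brought calls for SYN3 (0.43), STX7 (-0.22) and DLGAP2 (0.55) without frozen replicate 3, SYT3 (-0.34) without frozen replicate 2, SYNGR1 without frozen replicate 4 or fixed replicate 3 (-0.26 and -0.25) and SNAP47 without frozen replicate 1 or fixed replicate 4 (0.30 and 0.33). It did so for SYTL2 without frozen replicate 2 or fixed replicate 4 (-0.99 and -0.86), for HOMER2 without the same libraries (0.64 and 0.78), and for SYTL5 without frozen replicate 3 or fixed replicate 4 (-0.54 and -0.55). A p above the threshold does not show that a level was the same. Replicate SD was smaller after fixation for 63 of 86 members (73.3%, beside 55.6% of all genes), with medians of 0.19 log2 CPM in frozen and 0.16 in fixed libraries.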

How the data were processed

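Retinal total RNA of 4 fresh-frozen and 4 PFA-fixed dog samples was sequenced after one stranded low-input total RNA kit, per the labels. The submitters' processing notes name kallisto 0.48.0, edgeR and limma. Transcript reference, filter, strand setting and scaling are not stated there. The authors deposited log2 CPM for 12824 genes by symbol, each above 1 CPM in at least 4 libraries, with a shared lowest value of -3.12. Read spacing above that value gave the depth: among values worth 20 reads or fewer, 60.9% to 68.5% came within 0.1 of a whole read (20% by chance), so no count test was run.

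Here limma 3.58.1 with an intensity trend (R 4.3.3) compared the groups on the deposited values, unfiltered, and p-values were adjusted by Benjamini-Hochberg across the whole table. A run on simulated data used the same depth in all libraries and few changed genes. These data differ in both, so that run does not settle the error rate here. Of the 86 members, 85 matched symbols of the assembly UU_Cfam_GSD_1.0. Named genes are, by role or list, the 2 highest means and the 2 largest called changes in each direction, and over all members the 8 largest of each (41 members, 28 others). Each such member is given in all libraries, except that a few genes are not reported here. Members and lists were chosen with earlier results of these data known. Alternatives were leaving out libraries, the replicate block, other scalings, a minimum of 3 log2 CPM, a pseudocount of 1 CPM and limma without trend. No sequences are given.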

Additional observations from a re-analysis of the deposited data

Results flagged for a closer look

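Among 69 named genes and 138 groups of 4 libraries, 4 had 1 library far from the other 3, where chance gives about 1 in 20 groups. HOMER3 was at 6.09 log2 CPM in fresh-frozen replicate 1, beside 5.43 to 5.46 in the other fresh-frozen libraries. SYNGR3 was at 3.31 log2 CPM in PFA-fixed replicate 4, beside 2.91 to 2.94 in the other fixed libraries. That replicate was also the highest fixed library for all 8 ganglion cell markers, and any link between these was not tested. The active zone gene RIMBP2 was at 7.17 log2 CPM in PFA-fixed replicate 3, beside 6.96 to 6.98. RIMS2 was at 10.83 log2 CPM in PFA-fixed replicate 4, beside 11.15 to 11.19 in the others.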

How the results depend on the processing

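Without single libraries, 17 to 25 members rose and 26 to 29 fell, with a median change of -0.10 to -0.0071, and 4107 to 4285 of all genes rose and 4231 to 4380 fell. Both rod scalings moved the median and the count of rises further. Under rod-mean scaling the median change of the members was -0.27. Under rod-median scaling 9 members rose and 41 fell, their median change was -0.42, and 1975 of all genes rose. SYP and SNAP91 then turned to -0.057 and -0.049. These scalings shift all genes alike by construction, and rising calls made up 49.4% of all calls as deposited, 36.2% under rod-mean and 25.3% under rod-median scaling. With quantile normalization 23 members rose and 25 fell, and 40 of the 45 calls were kept. Centring on library medians also gave 23 and 25, and it kept 43 of the 45. The replicate block kept all 45 and added 4 (HOMER2, SNAP47, STXBP2 and SYTL2), so that 21 rose and 28 fell. The labels do not say that the numbers pair libraries, so the main fit took them as unpaired. Deviations from the group mean gave r of 0.050, 0.15, -0.089 and 0.22 across genes for same-numbered libraries. For differently numbered ones r ran from -0.27 to 0.22. Such correlations, with 4 libraries per group, cannot decide whether same-numbered libraries came from one animal. With the minimum of 3 log2 CPM, 78 members were tested, and the pseudocount of 1 CPM changed no member's call. Depth was lower in fixed libraries, and its effect on the 8 members with a mean under 3 log2 CPM was not tested.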
